A study of Homo sapiens with 30 samples.

Results

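The vehicle-treated cells of the T-47D line, 6 arrays of 30, were compared with the vehicle-treated cells of 4 other breast cancer cell lines, 24 arrays. T-47D is a human line from a pleural effusion of a ductal breast carcinoma and is widely used as a model of luminal breast cancer that carries estrogen and progesterone receptors. HCC1954, MDA-MB-231, MDA-MB-361 and ZR-75-30 are the other lines. HCC1954 is an ERBB2-amplified line without estrogen receptor, MDA-MB-231 is a mesenchymal line that lacks estrogen receptor, progesterone receptor and ERBB2 amplification, and MDA-MB-361 and ZR-75-30 are ERBB2-amplified lines with estrogen receptor. The study followed the response of these lines to bone morphogenetic protein 7 (BMP7) at 30 min and 1, 3, 6, 12 and 24 h. On each array RNA of vehicle-treated cells was labelled with Cy3 and RNA of BMP7-treated cells of the same line and time with Cy5, and only the Cy3 channel was used for the levels below. The members were chosen by the cell line label, and all 6 of the T-47D arrays entered every comparison unless stated. Each RNA came from 3 pooled cultures of 1 line, so a line is a single model and the 6 arrays of a line are 6 time points without a replicate of any of them. T-47D and MDA-MB-231 were grown in serum concentrations that differed from the recommended ones, so culture medium and line cannot be told apart. Because each RNA was taken from a whole culture, fewer expressing cells and less RNA per cell cannot be told apart.

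Luminal breast cancer cells resemble the hormone-sensing epithelial cells that line the milk ducts. The estrogen receptor ESR1 works there with the pioneer factor FOXA1 and with GATA3, which together keep open the enhancers of luminal genes. The progesterone receptor gene PGR is itself a classical estrogen target, and secreted proteins such as PIP, the prolactin-induced protein, are products of hormone-responsive apocrine and luminal cells.

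Levels are log2 signals with the median of each array set to 0, so a level of 0 is the median probe of that array, and differences are log2 differences of these levels. A probe was called when the difference had an adjusted p under 0.05 in limma (Benjamini-Hochberg over all probes) and was at least 2-fold. The p-values measure the spread between the arrays of a line and not the spread between lines. With the 5 line means as the unit, 1 line against 4, no probe was called by limma, and 2530 of 41000 probes had an unadjusted p under 0.05. The smallest p that an exact permutation test of 1 line against 4 can give is 0.2. Where a probe was not well above background on any array of a line, the fold is given as a lower bound, with each array of that line set to its lowest signal among probes well above background or to the probe's own signal, whichever was higher. A bound against the mean of the 4 lines is formed the same way, with only such lines set to it. Lines with only some arrays above background kept their own signals, so there the bound against the mean is approximate. Where a list is summarised by a median, the fitted differences entered.

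Between 55.5% and 66.3% of the 41000 probes were well above background on the T-47D arrays. The arrays of 3 h and 24 h stood apart from the other 4. These 2 arrays correlated with each other at r = 0.977 over probes, and with the other 4 T-47D arrays at 0.948 to 0.967, while the other 4 correlated among themselves at 0.983 to 0.992. The scan days recorded for the arrays were grouped here into 2 scan batches, earlier and later days, which is a chosen cut. The 3 h array lay in the second scan batch and on a slide of its own, and it had the lowest share of probes well above background in T-47D. Of the 4894 probes without a gene symbol that were well above background on all 6 T-47D arrays, 24.0% were at least 2-fold higher at 3 h and 24 h than on the other 4 arrays, against 6.80% of the 16840 probes with a symbol. The median difference between T-47D and the other lines over all probes was 0.18, and it was 0.00 without these 2 arrays. Differences are therefore also given without them wherever a call against the mean of the 4 lines changed. Calls against every line were not followed gene by gene. Of the 1159 probes higher than every line 846 kept that call without these 2 arrays, and of the 1018 lower ones 686 did. The 3 slides that carried T-47D held no other line, so slide could enter only as a random block, and with it 4692 probes were higher and 4964 lower than the mean of the 4 lines, against 4720 and 4929 without it. Within the first scan batch, which leaves out the 3 h array, 4520 were higher and 4792 lower.

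The T-47D label held against its markers, except that VIM, COL1A1 and CD3E, listed as genes that should be low, were above background. KRT14, also on that list, is not reported here. Of the 9 luminal and epithelial markers set for it, ESR1, PGR, GATA3, FOXA1, KRT8, KRT18, KRT19, CDH1 and EPCAM, all 9 were well above background on all 6 arrays. Of the genes that should be low, VIM, which encodes the mesenchymal filament protein vimentin, was above background with levels from 0.42 to 1.79, against a mean of 10.25 in MDA-MB-231. KRT5, ZEB1, PTPRC and PECAM1 were not well above background on any T-47D array. COL1A1 was at 0.23 to 1.00 and CD3E at -1.02 to 1.03. ERBB2 was at 6.28, 6.43 and 6.80 (lowest, median and highest), with differences of -3.33 to -4.0 to the 3 ERBB2-amplified lines and 1.17 to MDA-MB-231. Each T-47D array correlated more strongly with its own line (mean r 0.958 to 0.976) than with any array of another line (at most 0.936). No T-47D array went against its label.

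**Figure D1:**
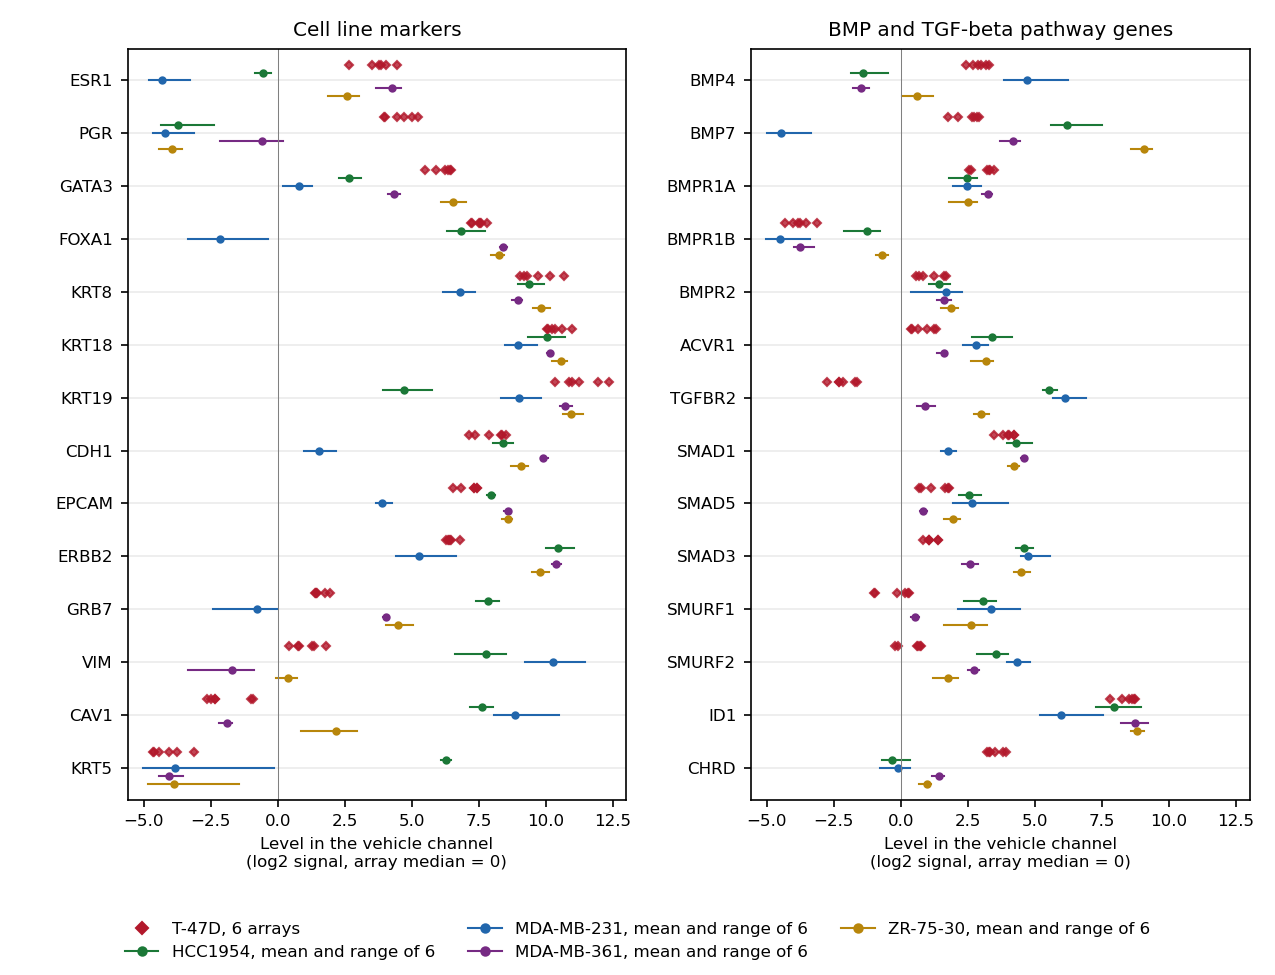
Levels in the vehicle channel (x axis, log2 signal with the array median at 0) of marker genes and of BMP and TGF-beta pathway genes. Red diamonds are the 6 T-47D arrays, and circles with lines are the mean and range of the 6 arrays of each other line. PGR of T-47D lies at 3.95 to 5.22, above every other array, and TGFBR2 lies at -2.76 to -1.63, below every other array.

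Of 40999 probes tested, 4720 were higher in T-47D than the mean of the other 4 lines (11.5%) and 4929 were lower (12%). These calls are a background for what follows, and the counts within gene lists are to be read against them. By gene, taking the brightest probe of each of 17842 genes, 2197 were higher (12.3%) and 2468 lower (13.8%). Scaling to the 75th percentile in place of the median shifted the median difference of all probes by 0.16 and gave 6143 higher and 3903 lower probes, so that the share of higher calls moved from 48.9% to 61.1%. Without the 3 h and 24 h arrays 3937 probes were higher and 4254 lower. By the adjusted p alone, with no limit on the fold, 48.6% of probes passed.

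A difference to the mean of 4 lines can rest on 1 of them, so the genes that differed from each line in the same direction are described first. T-47D was higher than every other line for 1159 probes (2.83%) and lower than every other line for 1018 (2.48%), which is 525 genes (2.94%) and 532 genes (2.98%) by the brightest probe. The 6 T-47D arrays lay above all 24 other arrays for 917 probes (2.24%) and below them all for 1017 (2.48%). In the Cy5 channel, from separate BMP7-treated cultures of the same lines, 1001 probes were higher and 826 lower than in every line, and 859 and 735 of these were also called in the vehicle channel in that direction.

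The 250 bases before the start are printed for 4 genes taken from those farthest above and below every line, chosen after their values were seen, as examples of how promoters differed in their CG pairs. The sequences are from RefSeq (GRCh38.p14), 5′ to 3′ on the strand of the gene, with each CG in capitals. SERPINA6 (chr14:94323337-94323586, minus strand) and PIP (chr7:143131827-143132076, plus strand) were among the genes highest above every line, and GPX1 (chr3:49358354-49358603, minus strand) and MET (chr7:116671946-116672195, plus strand) among those farthest below.
SERPINA6: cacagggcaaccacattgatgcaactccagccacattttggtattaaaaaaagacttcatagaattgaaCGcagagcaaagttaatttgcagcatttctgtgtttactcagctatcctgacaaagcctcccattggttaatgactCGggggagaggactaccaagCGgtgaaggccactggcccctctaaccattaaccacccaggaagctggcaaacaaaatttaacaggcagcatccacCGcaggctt
PIP: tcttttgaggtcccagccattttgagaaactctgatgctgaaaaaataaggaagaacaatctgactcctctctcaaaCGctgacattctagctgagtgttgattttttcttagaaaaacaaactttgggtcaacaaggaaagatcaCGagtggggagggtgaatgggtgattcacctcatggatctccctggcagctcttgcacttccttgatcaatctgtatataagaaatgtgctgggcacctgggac
GPX1: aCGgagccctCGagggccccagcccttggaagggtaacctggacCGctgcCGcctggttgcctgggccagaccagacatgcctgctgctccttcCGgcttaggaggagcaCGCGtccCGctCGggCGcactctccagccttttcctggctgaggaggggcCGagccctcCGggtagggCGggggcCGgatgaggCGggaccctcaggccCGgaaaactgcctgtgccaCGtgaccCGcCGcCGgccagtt
MET: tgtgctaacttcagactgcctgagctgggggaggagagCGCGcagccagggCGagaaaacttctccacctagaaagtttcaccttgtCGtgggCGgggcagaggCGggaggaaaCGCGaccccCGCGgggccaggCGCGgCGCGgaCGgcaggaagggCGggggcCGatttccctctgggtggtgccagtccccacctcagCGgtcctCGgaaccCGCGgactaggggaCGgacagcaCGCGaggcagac

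These stretches hold 4 CG pairs for SERPINA6 and 2 for PIP, against 20 for GPX1 and 24 for MET. Of the 15 named genes each way with a sequence, 12 higher ones had 2 to 32 CG pairs in a window of 300 bases (median 6) and 13 lower ones 7 to 48 (median 28), so the ranges overlapped, with NALF1 at 32 among the higher and EPDR1 at 7 among the lower. In the larger groups, in the same windows (250 before and 50 after the start), the median number of CG pairs was 16 in 386 genes higher than every line, 28 in 451 genes lower than every line and 23 in the 13996 measured genes with a promoter sequence. Of the genes higher than every line, 20.2% had at most 5 CG pairs, against 9.76% of the lower genes and 16.5% of all. Without the 3 h and 24 h arrays the medians were 17 and 28. The higher and lower sets were not selected alike. Named higher genes had to be well above background on at least 5 T-47D arrays, and named lower genes on at least 20 other arrays. A gene lower than every line must also exceed T-47D in each of the other lines, while a higher gene may be expressed in T-47D alone. Whether the CG counts differ apart from this selection was not tested. The forkhead motif TGTTTAC, searched on both strands, was in 1.81% of the higher, 3.1% of the lower and 2.52% of all windows, and SERPINA6 holds it.

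SERPINA6, which encodes corticosteroid-binding globulin, the carrier of cortisol in plasma, had the largest margin above every line. Its probe (hg18, chr14:93840383-93840442) was at 9.62, 9.72 and 10.60 (lowest, median and highest of 6) in T-47D and at -1.52, -0.63 and 0.56 in the other 24 arrays. The groups did not overlap, and the gap was wide on each T-47D array. The difference was 10.51 (SE 0.21, adjusted p = 2.01e-26, limma), and against single lines it was 10.20 to 10.85. PIP (hg18, chr7:142546867-142546926) was at 9.16, 9.44 and 10.17 in T-47D and at -4.30, -0.69 and 1.32 in the others, a difference of 10.48 (SE 0.32, adjusted p = 4.93e-22). The closest line was ZR-75-30, 9.02 below T-47D. APOE, the apolipoprotein of remnant lipoproteins, was at 7.07, 7.33 and 8.36 in T-47D and at -0.05, 0.57 and 1.42 in the others (difference 6.90, SE 0.18).

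Several of the other genes far above every line were not detected elsewhere. XG, which encodes a blood group antigen, was not well above background on any of the 24 other arrays and was at least 105-fold (ZR-75-30) to 137-fold (HCC1954) higher in T-47D. PAMR1, ABCC13 and CRH, the corticotropin-releasing hormone gene, also had no other array well above background, and their bounds against the mean of the 4 lines were at least 36.6-fold, 24.9-fold and 15.5-fold. PDZK1, a scaffold protein of the apical membrane, was 7.03 above the mean of the other lines, LRRN3, a membrane protein with leucine-rich repeats, 6.91, and NALF1 at least 141-fold. LRRN3 and NALF1 were each well above background on only 7 of the 24 other arrays. SULF1, a sulfatase, was above background in ZR-75-30 alone of the other lines and at least 251-fold above the mean, and the secreted protein gene FGFBP2 at least 90.3-fold. GAGE12F and CT45A1, cancer-testis genes of the X chromosome, were 8.95 and at least 176-fold above it, and VCX2, also on X, at least 141-fold. These last 3 genes belong to families of nearly identical copies, so which copy gave the signal is uncertain.

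**Figure D2:**
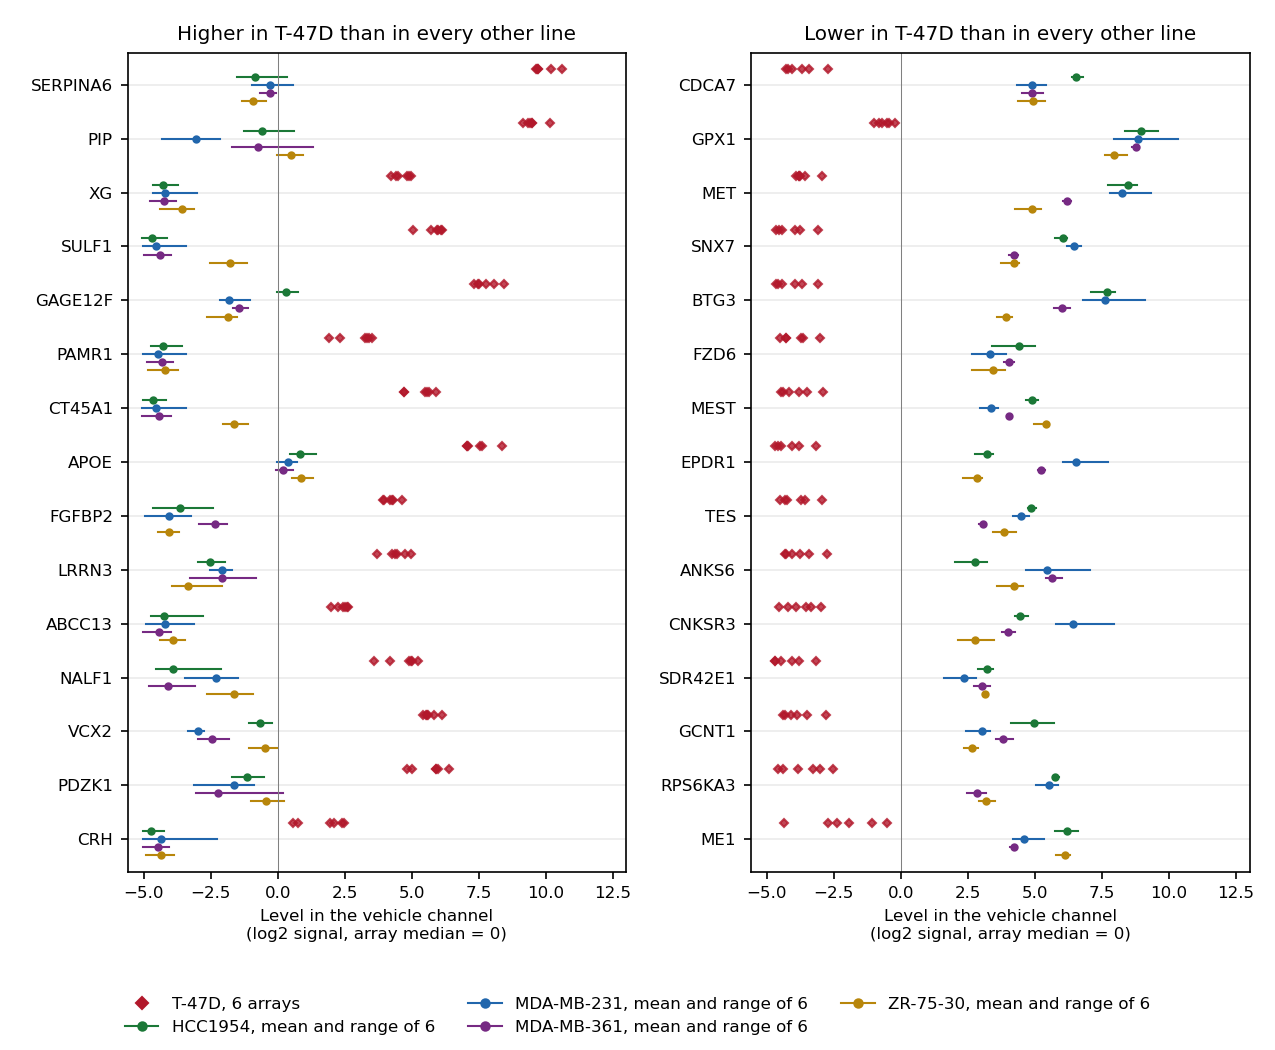
Levels in the vehicle channel (x axis, log2 signal with the array median at 0) of the 15 genes with the largest margin above every other line (left) and the 15 with the largest margin below every other line (right). Red diamonds are the 6 T-47D arrays, and circles with lines are the mean and range of the 6 arrays of each other line. For each of the 30 genes the T-47D arrays lie apart from all 24 others, SERPINA6 at 9.62 to 10.60 against at most 0.56.

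GPX1 encodes the cytosolic glutathione peroxidase, a selenoenzyme that reduces hydrogen peroxide. It was at -1.0, -0.61 and -0.21 in T-47D (hg18, chr3:49369625-49369684) and at 7.61, 8.70 and 10.32 in the other lines. Its T-47D signal was weak but well above background on all 6 arrays, so the difference of -9.26 (SE 0.21, adjusted p = 3.77e-25), 613-fold, was measured on both sides. MET, the receptor of hepatocyte growth factor, was at -3.93, -3.79 and -2.96 in T-47D and at 4.25, 7.04 and 9.33 in the others (hg18, chr7:116225526-116225585). No T-47D array was well above background for MET, and all 24 others were, so T-47D was at least 106-fold (against ZR-75-30) to 1276-fold (against HCC1954) lower. All 3 MET probes were called lower.

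The other genes named for the widest margins below every line were at background in T-47D, with 1 T-47D array of ME1 as the exception. Their detection elsewhere was a condition for being named, since at least 20 other arrays had to be well above background. CDCA7, a MYC- and E2F-responsive chromatin gene, was at least 142-fold lower than the mean of the 4 lines, the sorting nexin SNX7 at least 134-fold and the antiproliferative gene BTG3 at least 284-fold, the last called for 1 of its 2 probes. The WNT receptor FZD6 was at least 49.7-fold lower, the imprinted gene MEST at least 76.1-fold, EPDR1 at least 78.0-fold and the focal adhesion protein gene TES at least 59.6-fold. ANKS6, CNKSR3, SDR42E1, GCNT1 (a glycan-branching enzyme) and RPS6KA3 (the kinase RSK2) were at least 27.3- to 82.0-fold lower. ME1, the cytosolic malic enzyme, which makes NADPH, varied most within T-47D, from -4.35 to -0.51, and was 7.45 below the others. Of the 1018 probes lower than every line, 233 had no T-47D array well above background.

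Against single lines, 5630 probes were higher (13.7%) and 5919 lower (14.4%) in T-47D than in ZR-75-30, against MDA-MB-361 6373 (15.5%) and 5531 (13.5%), against HCC1954 5931 (14.5%) and 6486 (15.8%), and against MDA-MB-231 6029 (14.7%) and 7433 (18.1%). The mean correlation of the T-47D arrays was 0.921 with ZR-75-30 arrays (range 0.886 to 0.936), 0.917 with MDA-MB-361 (0.886 to 0.932), 0.902 with HCC1954 (0.871 to 0.916) and 0.877 with MDA-MB-231 (0.845 to 0.897). The first 2 ranges overlap almost wholly, so these lines were not ordered by likeness to T-47D. The 4 comparisons share the T-47D arrays.

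GNG11, a G protein gamma subunit, was at 8.22, 9.01 and 9.24 in T-47D. It was at least 2583-fold higher than in HCC1954 and at least 1985-fold higher than in ZR-75-30, where no array was above background, and 12.13 above MDA-MB-361, but only 2.69 above MDA-MB-231. MGP, the matrix Gla protein that inhibits calcification, was among the brightest genes in T-47D (10.18, 10.57 and 10.86). It was at least 7254-fold higher than in MDA-MB-231, 10.85 above ZR-75-30 and 4.01 and 4.19 above HCC1954 and MDA-MB-361. SOD3, the extracellular superoxide dismutase, was at least 2035-fold above HCC1954 and 1.69 above MDA-MB-361. AUTS2 was at least 703-fold above MDA-MB-361 and 1.83 above HCC1954. GSTT2, which has a nearly identical duplicate, was at least 452-fold above HCC1954. IGFBP5, a binding protein of insulin-like growth factors, was at least 789-fold above MDA-MB-231 and did not pass the test against MDA-MB-361 (-0.05) or ZR-75-30 (0.22).

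The genes farthest below single lines were mostly at background in T-47D and bright in 1 or 2 of the other lines. Moesin, the MSN product that ties actin to the membrane, was at background in T-47D, as in MDA-MB-361 and ZR-75-30, and was at least 935-fold lower than in MDA-MB-231 and 586-fold lower than in HCC1954. The aldo-keto reductase AKR1B10 was at least 880-fold lower than in HCC1954, and the GPI-anchored protein LY6K, detected on 1 T-47D array, differed by -11.92 from that line. SPANXB1, a cancer-testis gene with nearly identical copies, was at least 1406-fold lower than in MDA-MB-231. AMBP, which encodes alpha-1-microglobulin and bikunin, was at least 714-fold lower than in MDA-MB-361, while no array of HCC1954 or MDA-MB-231 was above background either. BCAN was at least 346-fold lower than in MDA-MB-361, but only 1 of its 3 probes was lower than the mean of the 4 lines and 1 was called higher. LXN, the carboxypeptidase inhibitor latexin, and the smooth muscle actin ACTG2 were at least 1659-fold and 599-fold lower than in ZR-75-30, and TSPYL5, detected on 1 T-47D array, differed by -10.58 from it.

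Among 24 gene lists, luminal genes had the largest share called higher, and mesenchymal genes, metallothioneins, keratins and basal genes the largest shares called lower in T-47D. The lists are described by counts and medians, beside the median of 0.09 over all genes tested, of which 12.3% were higher and 13.8% lower.

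**Figure D3:**
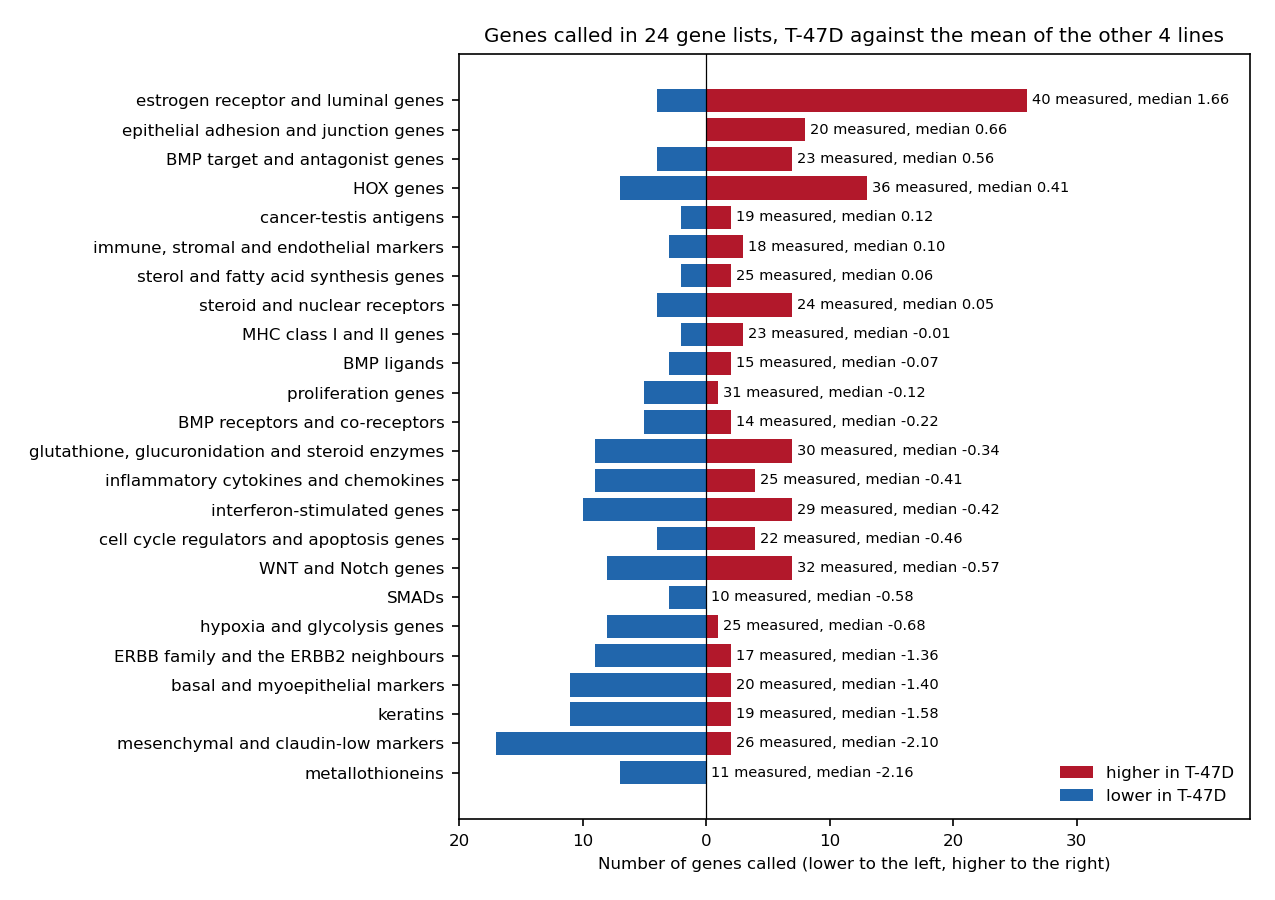
Number of genes called higher (red, to the right) or lower (blue, to the left) in T-47D than the mean of the other 4 lines in each of 24 gene lists, with the number measured and the median log2 difference beside each bar. The list of estrogen receptor and luminal genes had 26 of 40 higher and 4 lower, and the mesenchymal and claudin-low markers had 17 of 26 lower and 2 higher.

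Of 40 estrogen receptor and luminal genes, 26 were higher in T-47D, 4 were lower and 10 were not called (median 1.66). Against MDA-MB-231 29 were higher and 2 lower, against HCC1954 24 and 1, against ZR-75-30 14 and 6 and against MDA-MB-361 14 and 10, so most of the higher calls were against the lines without estrogen receptor. PGR was at 3.95, 4.58 and 5.22 in T-47D, above every other array, and was at least 84.5-fold above the mean of the other lines (adjusted p = 4.46e-20, limma). It was 5.13 above MDA-MB-361, the only other line with arrays well above background for it (5 of 6), and at least 99.5-fold above ZR-75-30. ESR1 was at 2.67, 3.83 and 4.44 in T-47D and higher than in ZR-75-30 (1.12), HCC1954 (4.28) and MDA-MB-231 (at least 63.2-fold), while the difference to MDA-MB-361 was -0.54 and did not pass the test. Among the 3 ESR1 probes, 1 had a small difference of the opposite sign that was not called.

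STC2, the secreted stanniocalcin and an estrogen target, was at 8.42 to 9.03 and 6.75 above the others, with ZR-75-30 closest (4.06). The prolactin receptor PRLR, the GATA-type repressor TRPS1 and the microtubule protein gene MAPT were also higher than in every line, by at least 1.77, 1.63 and 1.55. CA12, TFF3, GREB1 and AGR2 were higher than the mean (5.19, 4.77, at least 15-fold and 4.04), but the difference of TFF3 to MDA-MB-361 was -0.76 and that of GREB1 to ZR-75-30 was 0.06. FOXA1 (2.14) and XBP1 (1.26) lost their call without MDA-MB-231. The differences to the other 3 lines were then -0.35 and 0.54, and XBP1 also lost it without HCC1954 (0.97). The 4 lower genes included CCND1 (-1.74), the D-type cyclin, and the mammaglobin complex SCGB2A2 and SCGB1D2, which T-47D lacked (at background) and MDA-MB-361 and ZR-75-30 expressed. TFF1 was at 5.93 to 7.29 and was not called (0.23). It was 5.66 above HCC1954 and 3.66 below ZR-75-30, and its 2 probes differed in sign.

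Of 24 steroid and nuclear receptors 7 were higher and 4 lower (median 0.05). Apart from PGR, the retinoic acid receptor RARA was 1.35 above the mean, although 1 of its 2 probes had the opposite sign. The glucocorticoid receptor NR3C1 was at 1.00 to 2.99, below every other array, and 2.85 lower than the mean of the other lines. PPARG, the receptor that drives fat cell differentiation, was at background in T-47D and well above background on all 24 other arrays, which makes it at least 27.5-fold lower.

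Of 17 genes of the ERBB family and the ERBB2 neighbourhood 9 were lower and 2 higher (median -1.36). The lower ones included ERBB2 (-2.52) and, beside it on 17q12, GRB7 (-2.34), STARD3 (-2.97) and PGAP3 (-2.49), and against MDA-MB-231 1 gene of the list was lower and 7 higher. ERBB4, the neuregulin receptor, was at 3.72, 3.92 and 4.17 in T-47D and at -5.12 to 1.33 in the others, higher than in every line and at least 36.1-fold above the mean. ERBB3 was 1.51 above the mean, 0.23 without MDA-MB-231. EGFR (-1.36) lost its call without the 3 h and 24 h arrays (-0.99), and also without MDA-MB-231 (-0.57) or HCC1954 (-0.68).

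Of 26 mesenchymal and claudin-low markers, 17 were lower and 2 higher (median -2.10), and 6 were lower than in every line. Among the latter LOXL2, a collagen cross-linking oxidase, was at background in T-47D (at least 45.7-fold below the mean), and TGFBI, a secreted TGF-beta target, was at -1.94 to 0.06 against 1.24 to 8.14. The urokinase PLAU (-4.87), the annexin ANXA1 (-4.45) and CAV2 (-5.47, well above background on 3 T-47D arrays) followed. Against MDA-MB-231 21 were lower, against HCC1954 17, and against MDA-MB-361 and ZR-75-30 9 each with 3 and 7 higher. VIM was lower than in MDA-MB-231 (-9.19) and HCC1954 (-6.71) but 2.79 higher than in MDA-MB-361. TWIST1, a repressor of epithelial genes, was among the 2 higher ones (1.91). ZEB1 was not well above background on any T-47D array and was not called.

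Of 20 basal and myoepithelial markers 11 were lower and 2 higher (median -1.40), and of 19 keratins 11 were lower and 2 higher (median -1.58). Most of this was the difference to HCC1954, against which 15 and 12 of them were lower. KRT5 was at background in T-47D and at least 279-fold below HCC1954, and in the other 3 lines 2 of 18 arrays were well above background. KRT7, a keratin of simple epithelia, was at 2.15 to 2.85 in T-47D and at 4.44 to 7.36 in the others, lower than in every line (-3.65, SE 0.17). KRT23, an acidic keratin, was at 7.16 to 8.34 and at least 124-fold above the mean, but its difference to HCC1954 was -0.25. The pair KRT8 and KRT18 of simple epithelium was bright in T-47D (medians 9.51 and 10.29) and not called. The alpha-crystallin CRYAB was higher than in every line (2.52) and ACTA2 higher than the mean (2.33), both listed as myoepithelial.

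Of 20 epithelial adhesion and junction genes all were well above background in T-47D, 8 were higher and none was lower than the mean of the 4 lines. The lowest of the 20 differences, -0.85 for the tight junction protein occludin (OCLN, adjusted p = 0.00759, limma), did not reach 2-fold. The membrane protease ST14 was at 7.03 to 7.25 and, like the epithelial ETS factor EHF, higher than in every line (3.19 and 2.69). Against MDA-MB-231 17 were higher and none lower, but against ZR-75-30 2 were higher and 5 lower. The E-cadherin gene CDH1 was 6.40 above MDA-MB-231 and 1.98 and 1.16 below MDA-MB-361 and ZR-75-30, and EPCAM behaved likewise (3.27, -1.44 and -1.44).

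BMP ligands signal through paired type I and type II serine/threonine kinase receptors, which phosphorylate SMAD1, SMAD5 and SMAD9, and TGF-beta through TGFBR1 and TGFBR2 to SMAD2 and SMAD3. Of 15 BMP ligands measured 2 were higher and 3 lower. BMP4 was at 2.43, 2.93 and 3.29 in T-47D, 1.78 below MDA-MB-231 and 2.32 to 4.39 above the other lines. The paper states that lines were picked by their own ligand levels. T-47D and MDA-MB-231 were picked for low BMP7, and ZR-75-30, HCC1954 and MDA-MB-361 for low levels of both BMP4 and BMP7. The BMP4 differences between T-47D and the latter lines are therefore not independent of that choice. Although every line was picked as low in BMP7, its mean level here was 9.06 in ZR-75-30 and 6.19 in HCC1954. BMP7 was at 1.75, 2.68 and 2.90. It was 6.57, 3.70 and 1.70 below ZR-75-30, HCC1954 and MDA-MB-361, and at least 27.0-fold higher than in MDA-MB-231, where it was at background. These values are from 1 of 3 BMP7 probes, all 3 of which were called lower than the mean of the other lines. On the remaining probes no T-47D array was well above background, and the differences to MDA-MB-231 were 0.93 and 1.32. The difference of BMP7 to the mean (-1.25) was not called without the 3 h and 24 h arrays (-0.97) or without HCC1954 (-0.43), and without ZR-75-30 it was 0.53.

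Of 14 receptors and co-receptors 2 were higher and 5 lower. The BMP receptors BMPR1A (0.39) and BMPR2 (-0.55) were not called and were well above background on all 30 arrays, whereas BMPR1B was at background in T-47D. BMPR1B was called lower than the mean, but not in the Cy5 channel (-0.82), without HCC1954 (-0.78) or without ZR-75-30 (-0.60). The type I receptor ACVR1 was at 0.36 to 1.31, below every other array (-1.93), although it was not called against MDA-MB-361 (-0.77). TGFBR2 was at -2.76, -2.24 and -1.63 in T-47D and at 0.61, 4.29 and 6.92 in the others, and no T-47D array was well above background. It was at least 6.4-fold lower than in MDA-MB-361, 27.2-fold lower than in ZR-75-30 and 158-fold lower than in HCC1954 (adjusted p = 1.83e-23 for the difference to the mean). Of 10 SMADs and SMAD ubiquitin ligases 3 were lower and none higher (median -0.58). SMAD3 was at 0.82 to 1.37 against 2.26 to 5.57, lower than in every line (-2.99, SE 0.14), as was the ubiquitin ligase SMURF2 (-2.70), while SMURF1 (-2.62) missed the 2-fold call against MDA-MB-361. SMAD9 was higher by the adjusted p (1.92e-05, limma) but not by 2-fold (0.83). SMAD1 (0.25) and SMAD5 (-0.70) were not called.

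Of 23 BMP target and antagonist genes 7 were higher and 4 lower (median 0.56). The antagonists chordin (CHRD, 3.02) and SOSTDC1 were higher than in every line, although SOSTDC1 was above background on 4 of 6 T-47D arrays and on no other, which bounds it at 1.4-fold. FST, follistatin, was at background in T-47D and MDA-MB-361 and at least 160-fold, 118-fold and 15.5-fold lower than in MDA-MB-231, HCC1954 and ZR-75-30. NOG was at background on all 6 arrays, and its lower call was lost without MDA-MB-231 (-0.51). The direct targets ID1 (0.56) and ID2 (0.63) were not called. ID3 was (1.13), but the difference was 0.69 and not called without MDA-MB-231, 0.75 without HCC1954 and 0.49 in the Cy5 channel.

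Of 32 WNT and Notch genes 7 were higher and 8 lower (median -0.57). DKK1, the secreted WNT inhibitor, was at -2.10, -1.65 and -1.12 in T-47D and at 1.45, 7.02 and 10.53 in the others (difference -7.72, SE 0.22), and the Notch ligand JAG1 was 5.21 lower. WNT3 (-1.88) was lower than in every line and the transcription factor LEF1 (2.78) higher. Of 36 HOX genes 13 were higher and 7 lower, with 15 at background in T-47D. HOXB2 to HOXB6 were all higher than the mean, by at least 2.7-fold for HOXB4 to at least 26.4-fold for HOXB2, while HOXB7 (-1.60) and HOXB9 (-2.16) were lower. HOXB5 and HOXC10 were higher and HOXA13 lower than in every line.

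Of 25 hypoxia and glycolysis genes 8 were lower and 1 higher (median -0.68), and without the 3 h and 24 h arrays 10 were lower. NDRG1, a hypoxia- and iron-responsive gene, was at 1.77, 1.96 and 2.32 in T-47D and at 4.33, 6.21 and 7.44 in the others (-3.98, SE 0.15). The glucose transporter SLC2A1 (-2.69), hexokinase HK2 (-2.38) and triosephosphate isomerase TPI1 (-1.80) were also lower than in every line. The aldolase ALDOC was at least 6.9-fold higher. Glycolytic genes such as LDHA (-0.45), PGK1 (-0.68) and ENO1 (-0.25) were not called. Of 11 metallothioneins, small metal-binding proteins of nearly identical sequence, 7 were lower and none higher (median -2.16). Against HCC1954, MDA-MB-231 and ZR-75-30 9 were lower in each case, and against MDA-MB-361 1 was lower and 1 higher. MT2A was at 6.81 to 8.40 against 8.30 to 11.38 (-1.61). Their probes may share signal.

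Of 30 glutathione, glucuronidation and steroid enzymes measured 7 were higher and 9 lower (median -0.34). GSTM2 (2.11) and CYP4X1 (3.60) were higher than in every line. GSTP1 was at -1.12 to -0.38, 8.78 below MDA-MB-231, 1.42 and 1.82 above MDA-MB-361 and HCC1954 and at least 2.4-fold above ZR-75-30, and was not called against the mean (-0.87). GSTT1 was at background in T-47D and MDA-MB-231 and at least 6.6-fold to 31.7-fold below the other lines. Of 25 sterol and fatty acid synthesis genes 2 were higher and 2 lower.

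Of 31 proliferation genes, all well above background, 1 was higher and 5 lower (median -0.12). MKI67 (-1.24), MAD2L1 (-1.23) and TYMS (-1.20) were lower in the full set but not called without the 3 h and 24 h arrays (-0.93, -0.53 and -0.93), which left 3 of the 31 called. BUB1 (-1.51) and RRM2 (-1.42) differed most in the full set. Of 22 cell cycle and apoptosis regulators 4 were higher, among them CDKN2A (2.17), and 4 lower, among them BIK (-2.19).

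Of 29 interferon-stimulated genes 7 were higher and 10 lower (median -0.42). The antiviral GTPase MX1 was at 4.59, 5.10 and 6.01 in T-47D and at -0.88 to 3.77 in the others, and BST2 (tetherin) at 7.36, 7.79 and 7.94 against -1.38 to 6.99. Both, with IFI6 by 1 of its 3 probes, were higher than in every line, while IRF7 (-1.50) was lower than in every line and GBP1 4.04 below the mean. Of 23 MHC genes 3 were higher and 2 lower, with the class II chaperone HLA-DMA higher than in every line (2.80). The lines went opposite ways, with 11 higher and 1 lower against MDA-MB-361 and 11 and 0 against ZR-75-30, but 3 and 7 against HCC1954 and 4 and 11 against MDA-MB-231. The interferon list had 14 higher and 2 lower against MDA-MB-361 and 6 and 14 against MDA-MB-231. Of 25 cytokine genes 4 were higher and 9 lower. The chemokine CXCL12 was at 6.69, 7.13 and 7.38 in T-47D and at -3.49, -1.36 and 2.63 in the others, and was at least 191-fold above their mean, and TNF at least 4.0-fold. IL6 and CSF2 were at background in T-47D. Of 19 cancer-testis antigens 2 were higher and 2 lower, and PRAME was at 4.51 to 5.62, 1.89 above HCC1954 and at least 155-fold above ZR-75-30.

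Of 18 immune, stromal and endothelial markers, 11 were at background in T-47D, 3 were higher and 3 lower. Of the higher ones 1, other than COL1A1, was higher than in every line. Of the defining ones PTPRC was at background on all 30 arrays. The macrophage marker CD68 (-2.69) and the endothelial PECAM1 were among the lower ones and COL1A1 (1.20) among the higher. PECAM1 lost its call without HCC1954 (-0.43) and COL1A1 without MDA-MB-231 (0.61) or ZR-75-30 (0.98). MS4A1 and CD3D, other lymphocyte genes, differed by 0.10 each and were not called, while CD3E, as given above, was above background in T-47D.

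The genes that set T-47D apart were unevenly spread over the chromosomes. This breakdown was added after the values had been seen, and the shares are descriptions over the 17724 genes with a position on chromosomes 1 to 22 or X (hg18). Genes lower than in every line made up 8.39% of 298 genes on chromosome 13, 6.57% on chromosome 4, 6.04% on chromosome 2 and 5.56% on chromosome 18, against 2.98% of all genes. On chromosomes 11, 14 and 22 they were 0.748%, 0.901% and 0.723%. Genes higher than in every line made up 5.14% of 1070 genes on chromosome 11 and 5.03% on chromosome 5, against 1.01% on chromosome 13. Against the mean of the 4 lines, 25% of the genes on chromosome 2 were lower and 7.19% higher, and on chromosome 11 6.64% were lower and 18.8% higher. Without the 3 h and 24 h arrays chromosome 13 still had the highest share of genes lower than every line (5.37%, against 2.29% of all genes). The share higher was then 5.28% on chromosome 5 and 5.14% on chromosome 11, against 2.79% of all genes. Copy number was not measured.

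**Figure D4:**
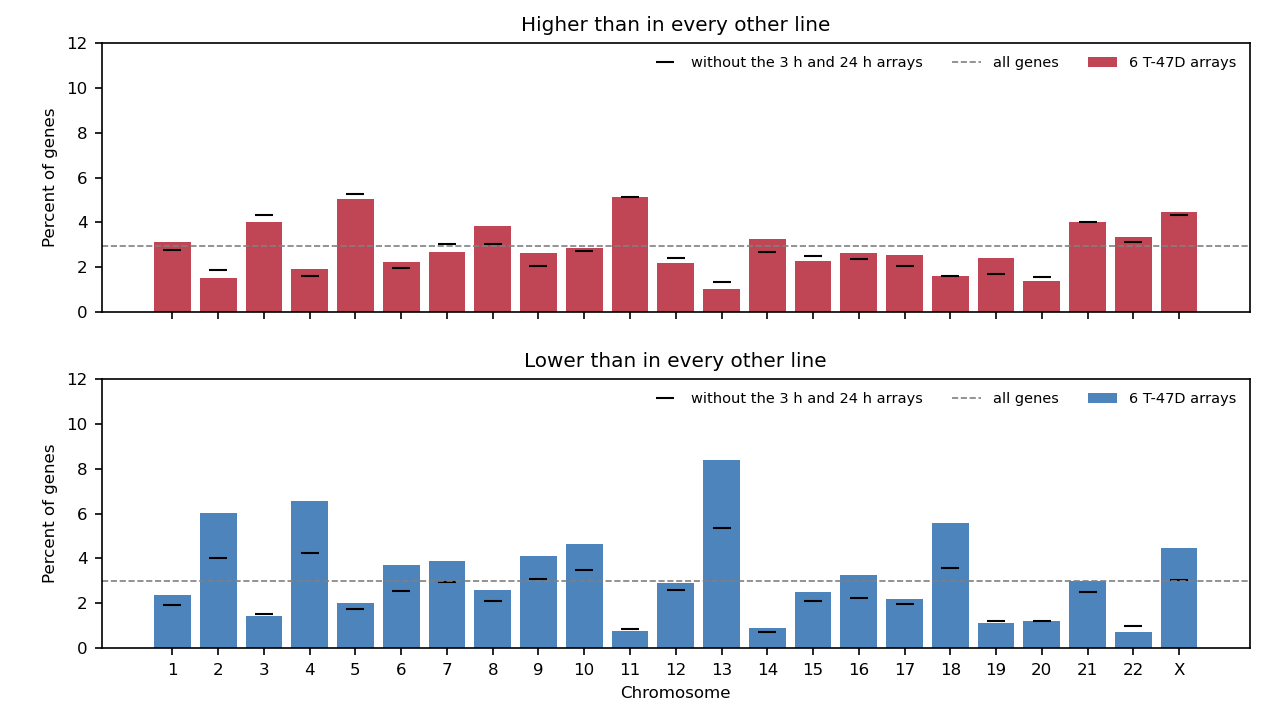
Percent of the genes on each chromosome (x axis) that were higher (top) or lower (bottom) in T-47D than in every other line. Bars use all 6 T-47D arrays, black marks leave out the 3 h and 24 h arrays, and the dashed line is the share over all genes (2.94% and 2.98%). Chromosome 13 stands highest in the lower panel at 8.39% and chromosome 11 highest in the upper at 5.14%.

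TES, CAV2 and CAV1, which lie before MET on chromosome 7, were also low in T-47D. The window of 1 Mb on each side was drawn around MET because of its own difference. Of the 11 other genes with a probe in it 6 were called lower, none was higher and 5 were not called, while 18.2% of all genes on chromosome 7 were lower. These neighbours other than TES, CAV1 and CAV2 are named after their values were seen. TES, at -541 kb from MET, was at least 59.6-fold lower, and the caveolin genes CAV2 and CAV1, at -298 and -238 kb, differed by -5.47 and -6.15. Both caveolin genes were near background in T-47D, with CAV2 well above it on 3 of 6 arrays and CAV1 on 1. On the other side of MET the differences were smaller, with CAPZA2 at -1.43 and ST7 at -1.25, both well above background on all 6 T-47D arrays. CTTNBP2, 913 kb away, was above background in MDA-MB-361 and in no other line, so its call rests on that line. TES, CAV2, MET and ST7 were lower than in every line. The antisense gene ST7-AS1 (-0.09) was well above background on all 30 arrays and was not called. The other 4 that were not called, TFEC, WNT2, ASZ1 and CFTR, were above background on none of the 30 arrays, so no difference could be seen there. CAV1 was as low in MDA-MB-361 as in T-47D (difference -0.05).

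**Figure D5:**
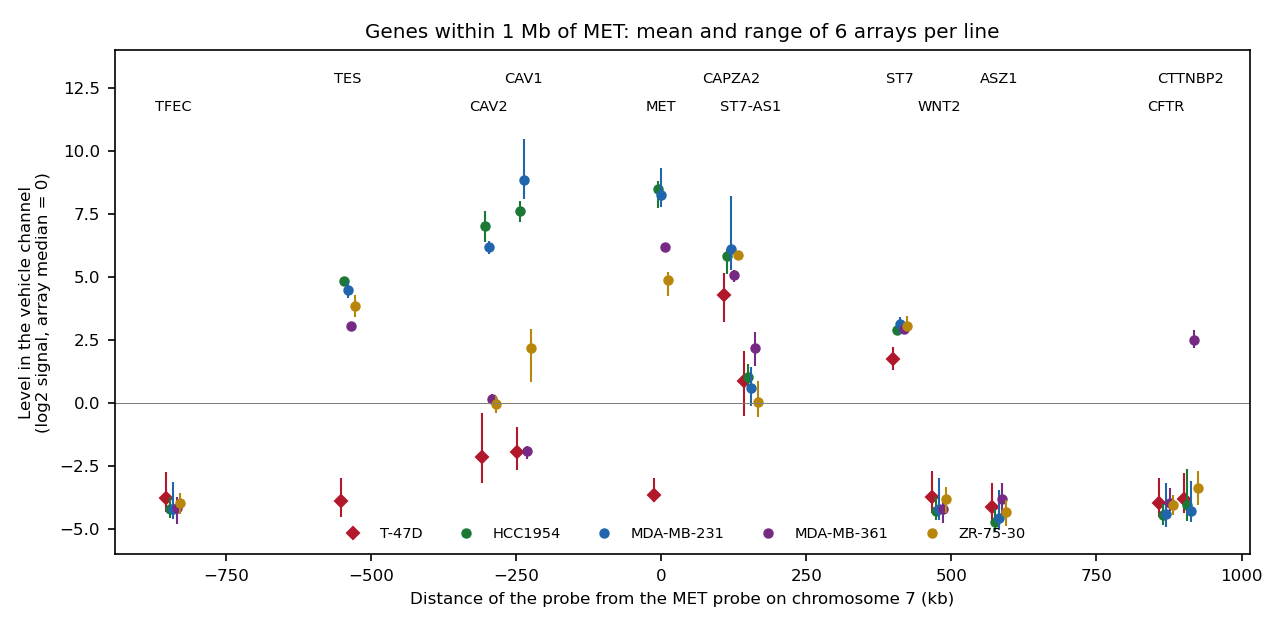
Levels in the vehicle channel (y axis, log2 signal with the array median at 0) of the 12 genes with a probe within 1 Mb of the MET probe, by distance in kb (x axis). Points are means and lines ranges of the 6 arrays of each line, with T-47D as red diamonds. T-47D has the lowest mean at TES, CAV2, CAV1, MET, CAPZA2 and ST7.

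Within T-47D the median SD over 6 arrays, for probes well above background, was 0.38. In the other lines it was 0.17 (MDA-MB-361), 0.29 (HCC1954), 0.30 (ZR-75-30) and 0.47 (MDA-MB-231), also over 6. Without the 3 h and 24 h arrays it was 0.20 in T-47D. Those 2 were left out because they stood apart, so a lower SD follows from that choice, and no array was left out of the other lines. Among the genes described, ME1 spanned 3.84 and HOXA13 4.39 in level between its lowest and highest array, while ST14 spanned 0.23, KRT7 0.70 and SERPINA6 0.98. With no replicate of a time point, differences between single times of T-47D could not be tested, and change over time was not tested here.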

How the data were processed

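Vehicle and BMP7 RNA of 5 lines at 6 time points had been hybridised to 30 two-colour Agilent 44K arrays (design 014850, hg18). The deposited files hold scanner intensity values which, per the file headers, the authors had made with Feature Extraction 9.5.1.1 (the study's methods name another version), with spatial detrending, surrogate values for signals near background and dye normalization, so values near background carry little information. The number of arrays limits precision. The processed Cy3 signal of non-control spots was used, without 63 to 2235 outlier-flagged spots of 43376 per array. Spots of a probe were averaged and log2 values were centred on each array's median. The deposited well-above-background flags were used as given. Of 41000 probes, 23958 were named by accession, 2755 by symbol and 1032 by synonym through RefSeq, and 13255 had no symbol. A gene was read from its brightest probe.

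limma 3.58.1 (R 4.3.3) fitted 1 mean per line over all 30 arrays, with contrasts of T-47D to the mean of 4 lines and to each line, and was tested on simulated data. Scripts used Python 3.11.15. Named were the 15 genes with the largest smallest margin each way over every line (well above background on at least 5 T-47D or 20 other arrays), the 3 largest differences each way per line, and examples from 24 lists. A few list members are not reported here. Members and lists were chosen with earlier results of these data known. Alternatives were other scalings, background correction (normexp, offset 50), filters, blocks, scan batches, the Cy5 channel, and leaving out arrays or lines. The scan-batch term, slide block and time block were among them. Deviations of T-47D arrays from their line mean were correlated with those of another line at the same time. Of 24 such correlations 8 exceeded 0.1 (range -0.61 to 0.59). At 1 h they were 0.04 to 0.41, but at 24 h -0.46 to -0.12 and at 0.5 h -0.51 to 0.02. The main fit did not pair arrays by time, and a shared effect of time was not tested.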

Additional observations from a re-analysis of the deposited data

Results flagged for a closer look

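Among 172 sets of 6 values checked for a single value far from the other 5, 11 stood out, and chance alone would give about 1 in 20. In T-47D the 3 h array was the high one for PIP (level 10.17, median of the 6 arrays 9.44), TFF3 (9.94, median 8.91), MET (-2.96, median -3.79, not above background) and COL1A1 (1.00, median 0.41), and the low one for WNT3 (-2.91, median -0.94) and AMBP (-3.0, median -2.18). The 24 h array was low for TFF1 (5.93, median 7.13). The 6 h array was low for RARA (5.78, median 6.54). The 1 h array was high for ERBB2 (6.80, median 6.43) and HOXA13 (-0.15, median -3.39), a gene well above background on 1 of the 6 arrays. The 6 h array of MDA-MB-231 had a mean correlation with its own line of 0.946, against a median of 0.975. It had the lowest share of probes well above background of all 30 arrays (54.2%).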

How the results depend on the processing

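With the 5 line means as the unit 0 probes were called. With normexp and quantile normalization 4508 probes differed from the mean of the 4 lines (9649 in the main setting) and 942 from every line (2177), and 6217, 7450, 6711 and 5714 from HCC1954, MDA-MB-231, MDA-MB-361 and ZR-75-30. At 4-fold the counts were 2638, 578, 4465, 5508, 3803 and 3618 in that order. The second scan batch alone, with 1 T-47D array assumed to vary like the others and no MDA-MB-361, gave 2376, and probes well above background on at least 1 array of every line gave 6161, of fewer probes tested. Without MDA-MB-361, 3719 probes differed from every line. With time point as replicate block the counts were 9628 and 2148, and with slide as a random block 9656 and 2048. Leaving out each T-47D array gave 8817 to 10399 and 1898 to 2467. Without the 3 h and 24 h arrays 3 of 31 proliferation genes were called, and no other list's count moved by over 1.5 times there. With each gene read from the probe with the largest absolute difference no list's did. With normexp 11 lists moved by more: BMP ligands 3 called (5 in the main setting), BMP receptors 3 (7), BMP targets and antagonists 4 (11), proliferation 3 (6), cell cycle 5 (8), MHC 2 (5), cancer-testis 1 (4), HOX 8 (20), WNT and Notch 9 (15), cytokines 8 (13) and immune markers 2 (6).

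Of 162 genes followed, 147 were called, and of these all 147 lost the call with line means, 49 in the second scan batch alone, 26 at 4-fold, 11 with normexp, 8 without MDA-MB-231, 7 without HCC1954, 5 without the 3 h and 24 h arrays, 4 in the Cy5 channel, 3 without ZR-75-30 and 1 in the first scan batch alone. These counts leave out called genes whose sign turned, which are among the 8 given next. Of those 8, TFF1, GSTP1 and CDH1 were not called in the main setting. The sign turned for 8: without MDA-MB-231 for FOXA1 (-0.35), CDH1 (-1.20) and GSTP1 (1.76), without HCC1954 for TFF1 (-1.58) and HOXA9 (0.046), without ZR-75-30 for BMP7 (0.53), without MDA-MB-361 for AMBP (0.81), and with normexp for CCL2 (-0.046). Those alternatives average over 1 line fewer, and for CCL2 the cause was not tested. Quantile scaling shifted the median of all probes by -0.17. Differences near the background of an array are compressed, and list medians include genes whose fold is known only as a bound.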
